A study of Mus musculus with 30 samples.

Results

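The flavin-containing monooxygenase genes Fmo1, Fmo2, Fmo4 and Fmo5 were followed across 5 diets in mouse liver. Their rows were taken by gene symbol, 4 of the 14173 genes counted, a family chosen with earlier results of these data known. All 4 passed the filter on low counts in every comparison. Libraries came from the livers of 30 male C57BL/6J mice, 6 per diet, and each library is 1 mouse. The experiment asked whether restricting protein acts through its methionine, with casein or soy as the protein source.

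Mice arrived at 9 weeks of age, were held on Cas-20% or Soy-20% before the switch, changed to their final diet at 12 weeks of age and stayed on it for 12 weeks, so that livers were taken at 6 months of age by the labels, after a 4 h fast. Cas-20%, labelled NP, held 20% casein with 0.57% methionine and 0.41% cysteine by weight. Cas-5%, labelled LP, held 5% casein with 0.15% methionine and 0.1% cysteine. Soy-20%, labelled 20Soy, held 20% soy protein with 0.22% of each amino acid and nothing added. Soy-20% + SAA, labelled 20Soy +SAA, was the same level of soy with methionine and cysteine supplied to reach 0.58% and 0.41%. Soy-10%, labelled 10Soy, held 11.5% soy protein with 0.13% of each. These amounts are those of the labels, and the study's methods give slightly less methionine for Cas-5% and Soy-20% + SAA. Both restricted diets therefore lowered total protein together with the sulfur amino acids, and those changes cannot be told apart within a protein source. The Soy-20% and Soy-20% + SAA diets differ in sulfur amino acids at the same level of soy.

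Flavin-containing monooxygenases are enzymes of the endoplasmic reticulum that carry FAD, take electrons from NADPH and pass an atom of molecular oxygen to a soft nucleophile, usually a nitrogen or a sulfur. They oxidise drugs, dietary amines and thioethers in the liver, alongside the cytochromes P450. FMO1 is a broad hepatic enzyme of this kind in mice and has been described as making taurine from hypotaurine, FMO2 is best known from lung, and FMO4 is the least characterised. FMO5 takes few of the usual substrates, inserts oxygen next to a carbonyl group in Baeyer-Villiger fashion, and is known from mice that lack it for a part in body weight and cholesterol. Other genes of the family were not analysed here.

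On GRCm38, Fmo4 (ENSMUSG00000026692, chr1:162793188-162813972), Fmo1 (ENSMUSG00000040181, chr1:162829561-162866610) and Fmo2 (ENSMUSG00000040170, chr1:162874317-162898726) lie side by side on the minus strand of chromosome 1. Their gene bodies span 105539 bases with gaps of 15588 and 7706 bases. Fmo5 (ENSMUSG00000028088, chr3:97628804-97655282, plus strand) lies alone on chromosome 3. All are protein coding, and GENCODE M21 annotates no other gene overlapping them.

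RefSeq start sites on GRCm38.p6 were held for 3 of the 4 genes, Fmo2, Fmo4 and Fmo5. Of the 250 bases before each start, the stretch up to the first annotated exon of that gene within these bases is printed. It sets the gene that changed with diet beside neighbours in the chromosome 1 group. The start of Fmo4 lies 1423 bases inside the annotated gene, so its printed stretch lies within the gene body. Sequences run 5′ to 3′ on the strand of the gene, and capitals mark a match to a searched motif.
Fmo5, chr3:97628769-97628803, plus strand: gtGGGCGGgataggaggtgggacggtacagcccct
Fmo4, chr1:162812654-162812799, minus strand: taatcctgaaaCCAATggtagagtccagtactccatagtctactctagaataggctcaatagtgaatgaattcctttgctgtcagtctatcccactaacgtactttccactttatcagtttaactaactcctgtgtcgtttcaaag
Fmo2, chr1:162898759-162899008, minus strand: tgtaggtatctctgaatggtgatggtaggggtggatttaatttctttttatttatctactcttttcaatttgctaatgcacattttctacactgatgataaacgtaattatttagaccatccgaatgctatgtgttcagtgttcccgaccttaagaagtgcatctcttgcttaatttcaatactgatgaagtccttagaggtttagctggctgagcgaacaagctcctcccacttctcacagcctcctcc

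The whole window of Fmo5 was 56% GC, against a median of 52.4% over 32851 RefSeq windows of that length. The window of Fmo4 was 42.4% GC and the first of Fmo2 39.6%, so both chromosome 1 windows were poorer in GC than the median. Searched on both strands, the Fmo5 window held a GC box (GGGCGG, in 32.7% of all windows), and, inside its annotated exon, a CCAAT box (CCAAT, 33.8%) and a TATA box (TATAAA, 12.4%), both on the other strand. The Fmo4 window held CCAAT and, inside an annotated exon, a nuclear receptor hexamer (AGGTCA, 14%) on the other strand. A second RefSeq start of Fmo2, 233 bases inside the annotated gene, also had AGGTCA in its window. That match begins 9 bases before the start and so lies inside the annotated gene. The window of the first Fmo2 start had no match. The response element of C/EBP and ATF factors (TGATGNAA, 3.45% of windows), the HNF1 core (GTTAAT, 6.43%) and the antioxidant response core (TGACNNNGC, 10.2%) matched in none of these windows. The matches are a description of letters and not of binding.

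Reads were tags from the 3′ end of polyadenylated RNA, made at 1 place per transcript, so counts were not divided by transcript length and a normalized count compares tag numbers. Libraries held between 7694015 and 14565542 counts. Raw counts per library ran from 1775 to 6254 for Fmo5, from 405 to 1097 for Fmo1, from 57 to 145 for Fmo4 and from 29 to 172 for Fmo2, so sampling error is small for Fmo5 and larger for Fmo2 and Fmo4. Livers 3 to 6 of Soy-20% + SAA stand apart from the other 26 libraries in how counts depend on GC. Their counts rise by 0.0512 to 0.175 log2 units for each 10% of GC in the last 200 bases of a transcript, against -0.0562 to 0.0275 elsewhere. Liver 3 is the least apart, at 0.0512, with 0.155 to 0.175 in livers 4 to 6. By chi-square per gene between 2 libraries, liver 3 was nearer livers 1 and 2 (16.5 and 11.8) than livers 5 and 6 (38.8 and 42.4). It had 17 with liver 4. The main values that rest on this diet are given with and without livers 3 to 6. Without them, the diet is represented by its livers 1 and 2 alone. The last 200 bases are 25% GC in Fmo2, lower than in all but 2.67% of genes, and 37% in Fmo5, 39% in Fmo1 and 41.5% in Fmo4, where the median gene has 40.5%. In whole liver, fewer cells of a type and less RNA per cell cannot be told apart.

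Fmo5 was by far the most abundant member by tag number. It gave 80.6% of the tags of the 4 genes, and its mean normalized count of 3424 lay above that of 97.6% of all genes. Fmo1 followed with a mean of 657, 15.5% of the tags. Fmo4 at 86.5 and Fmo2 at 78.3 gave 2.04% and 1.85%. The share of Fmo5 within the 4 genes was 83.8% ± 3.69 in Cas-20% and 76.1% ± 1.27 in Cas-5% (SD, n = 6 each), and 81.7% ± 1.94 in Soy-20%, 81.5% ± 1.78 in Soy-20% + SAA (80.2% without livers 3 to 6) and 77.8% ± 1.55 in Soy-10%. The mean share was thus lower on each restricted diet, with livers at 74.8 to 77.7% in Cas-5% and at 77.9 to 88.3% in Cas-20%. The soy diets overlapped, at 76.1 to 80.3% in Soy-10%, 79.3 to 83.8% in Soy-20% and 78.2 to 82.8% in Soy-20% + SAA. The shares were not tested.

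**Figure D1:**
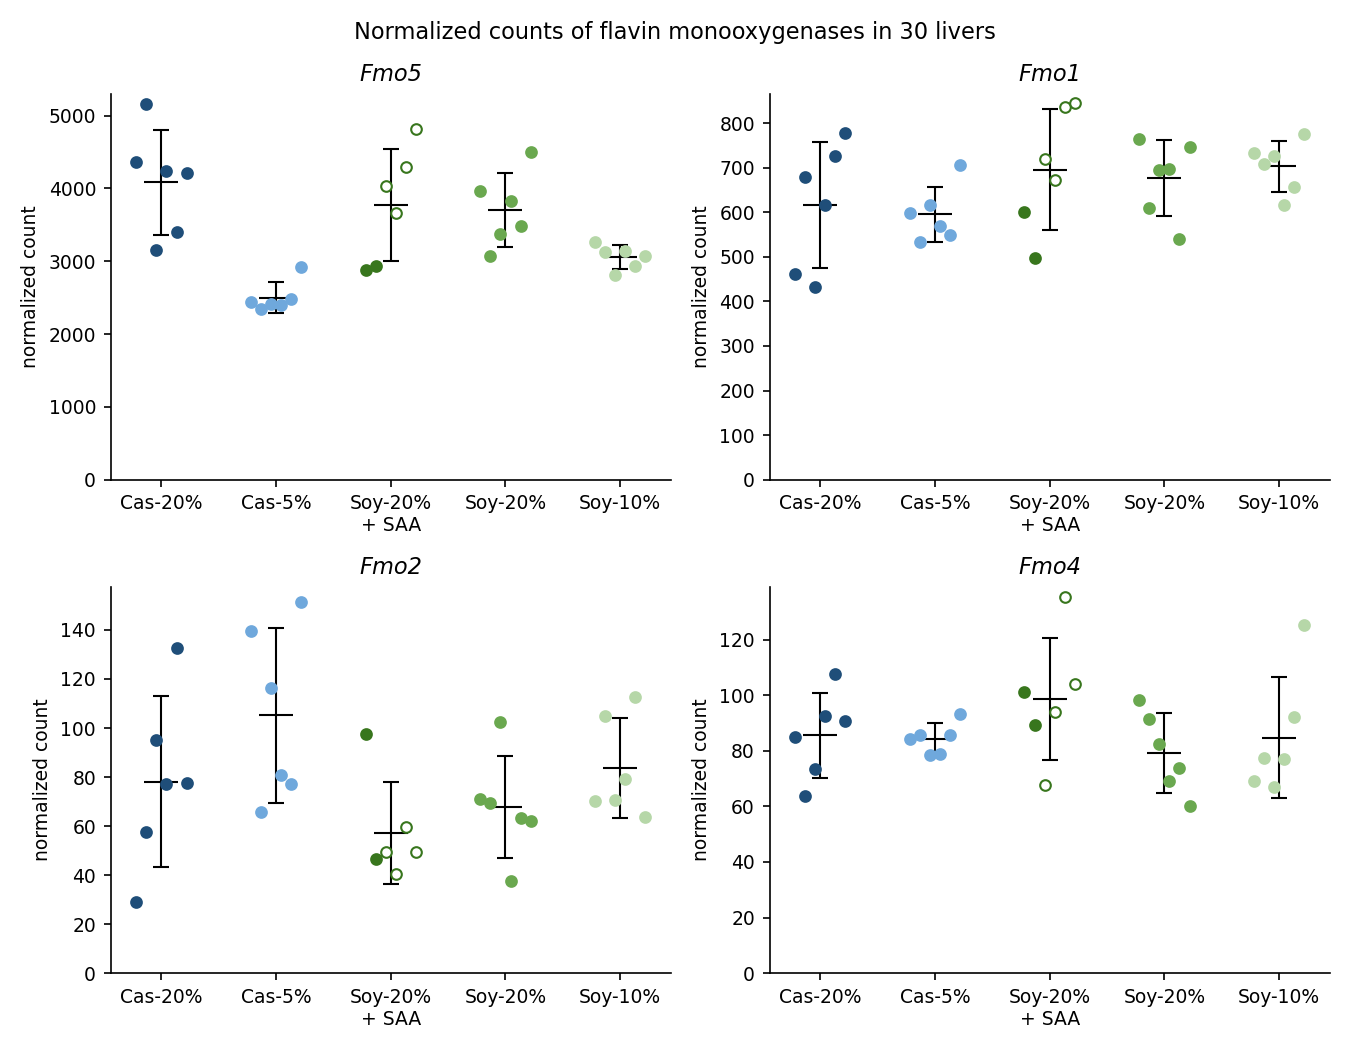
Normalized counts (linear axes from 0) of Fmo5, Fmo1, Fmo2 and Fmo4 by diet, 1 point per liver, with the mean and SD of 6 livers as bars and Soy-20% + SAA livers 3 to 6 as open circles. Fmo5 ran from 2340 to 2922 in Cas-5%, below every Cas-20% liver, while the other genes overlapped between these diets.

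Restricting casein lowered Fmo5, and no other member passed the test. In Cas-20% the 6 livers had normalized Fmo5 counts of 4356, 5160, 3152, 4233, 3397 and 4213, a mean of 4085 ± 723 (SD). In Cas-5% they had 2444, 2340, 2418, 2393, 2487 and 2922, a mean of 2501 ± 212. The highest Cas-5% liver lay below the lowest Cas-20% liver, so the diets did not overlap. The difference was -0.69 on the log2 scale (SE 0.10, 95% CI -0.91 to -0.47), or 1.62-fold lower, with an adjusted p of 0.00012 by edgeR's quasi-likelihood test with Benjamini-Hochberg adjustment over 12076 genes. Of the 4 members 1 was called, where 24.9% of all genes were called, 13.3% as lower, and 12.9% did not overlap between these diets. The call held in all 12 fits that left out 1 liver, with log2 differences from -0.77 to -0.62, and under 7 of 7 other settings.

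Fmo1, the second hepatic member, did not separate these diets. Its normalized counts ran from 433 to 778 in Cas-20% (median 648) and from 534 to 706 in Cas-5% (median 584). The difference was -0.03 (SE 0.13, 95% CI -0.31 to 0.24, adjusted p = 0.88 by edgeR), and its sign turned when Cas-20% liver 5 or liver 6 was left out. Fmo4 had 63.8 to 108 in Cas-20% (median 88) and 78.6 to 93.3 in Cas-5% (median 84.9), a difference of -0.01 (SE 0.12, 95% CI -0.25 to 0.24, adjusted p = 0.98). Fmo2, the lung-type member, had 29, 57.7, 95.1, 77.2, 132 and 77.5 in Cas-20% and 139, 65.9, 116, 80.7, 77 and 151 in Cas-5%. Its mean was higher on Cas-5% by 0.45 log2 units (SE 0.27, 95% CI -0.13 to 1.03), but the livers overlapped widely and the adjusted p was 0.25.

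**Figure D2:**
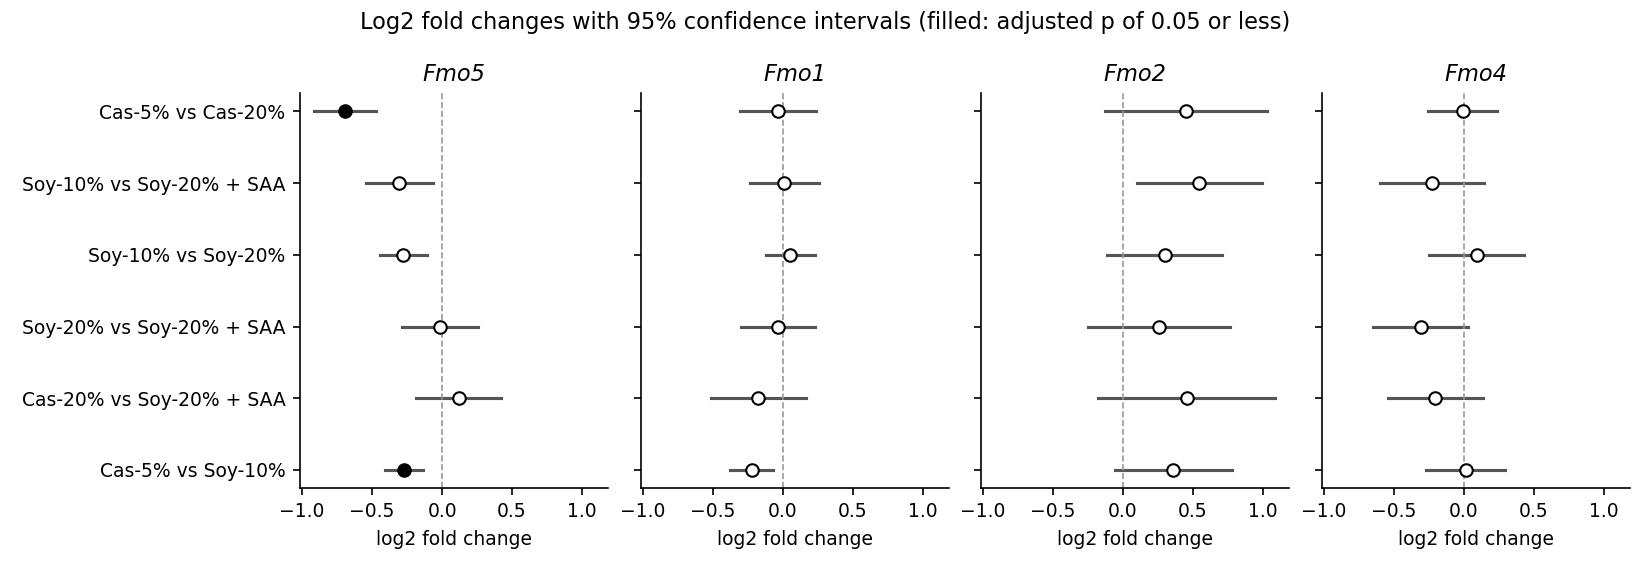
Log2 fold changes (horizontal axis) of the 4 genes in 6 comparisons of diets, first-named diet over the second, with 95% confidence intervals as lines and filled points for an edgeR adjusted p of 0.05 or less. Fmo5 is filled at -0.69 for Cas-5% against Cas-20% and at -0.27 for Cas-5% against Soy-10%, and no point of the other genes is filled.

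Restricting soy moved Fmo5 in the same direction by a smaller amount that did not pass the test. Soy-10% livers had 3261, 3134, 2814, 3144, 2933 and 3066 normalized counts of Fmo5, a mean of 3059 ± 161 (SD). Soy-20% livers had 3968, 3073, 3377, 3827, 3490 and 4503, a mean of 3706 ± 505. Of the Soy-20% livers 5 lay above every Soy-10% liver, and liver 2 was inside the Soy-10% range. The difference was -0.28 (SE 0.08, 95% CI -0.45 to -0.11, adjusted p = 0.125 by edgeR over 11897 genes). In this comparison edgeR called 0 of 4 members and 0.866% of all genes. At an unadjusted p under 0.05 it had 1 member and 1460 of 11897 genes. DESeq2 called 1 member, Fmo5, at an adjusted p of 0.0499, and 228 of 11897 genes. Leaving out 1 liver at a time gave edgeR differences for Fmo5 from -0.33 to -0.21 with no call.

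Against Soy-20% + SAA, the control whose sulfur amino acids match Cas-20%, the value depended on which libraries entered. Soy-20% + SAA livers 1 and 2 had 2873 and 2936 normalized counts of Fmo5, and livers 3 to 6 had 4038, 3667, 4288 and 4822. Livers 1 and 2 thus lay at the level of Soy-10%, and livers 3 to 6, whose libraries stand apart, lay above all Soy-10% livers. Over all 6 the difference of Soy-10% was -0.30 (SE 0.11, 95% CI -0.55 to -0.06, adjusted p = 0.0753), where 17% of all genes were called. Here edgeR called 0 of 4 members, with 2 at an unadjusted p under 0.05, as had 4064 of 11983 genes. DESeq2 called 0 members and 2389 of 11983 genes. The difference was 0.07 (adjusted p = 0.728) without livers 3 to 6, 0.00 (adjusted p = 0.993) with the GC slope of each library as a covariate, and -0.45 (adjusted p = 0.000494) without livers 1 and 2.

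**Figure D3:**
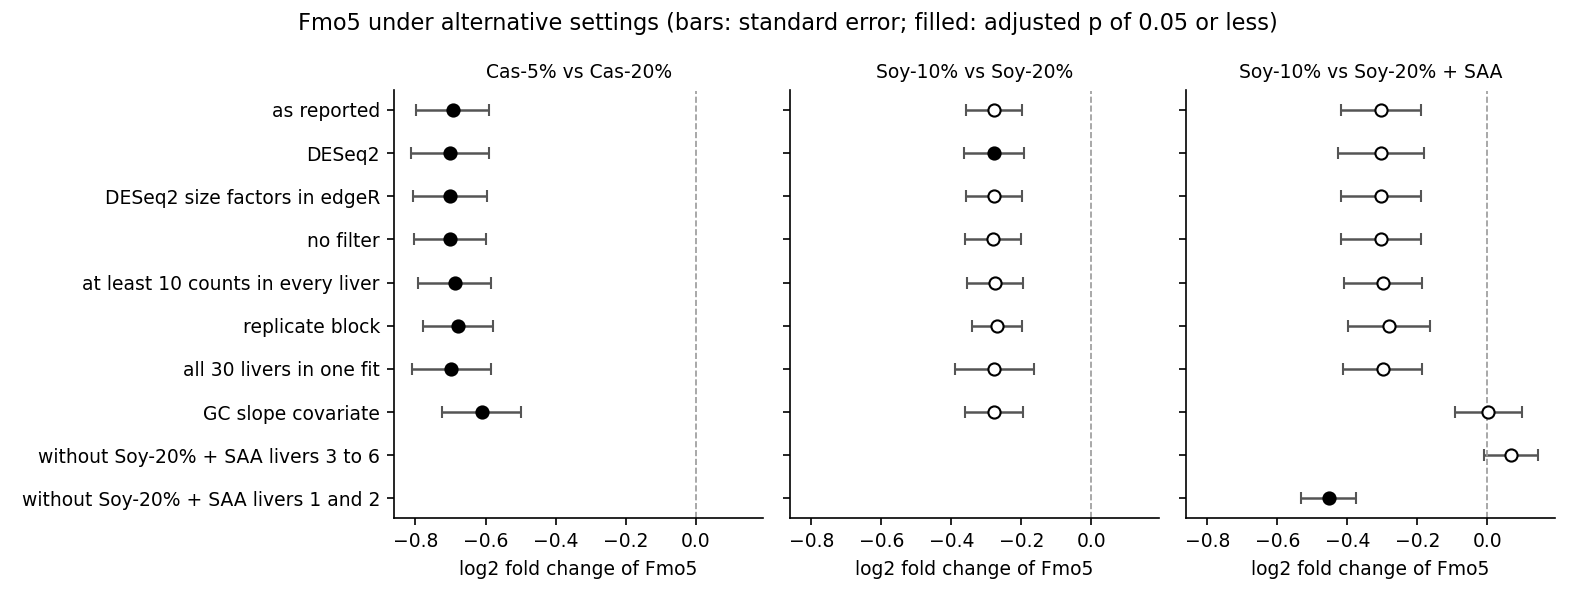
Log2 fold change of Fmo5 (horizontal axis, bars are standard errors) in 3 comparisons under the reported fit and its alternatives, filled where the adjusted p was 0.05 or less; a setting that changes no library of a comparison has no point there. Casein restriction stays between -0.70 and -0.61 and filled, while soy restriction against Soy-20% + SAA runs from -0.45 to 0.07 with the libraries of that diet.

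Adding methionine and cysteine to Soy-20% gave no change in any member that passed the test. For Fmo5 the difference of Soy-20% from Soy-20% + SAA was -0.02 (SE 0.13), with a 95% CI from -0.29 to 0.26. Without Soy-20% + SAA livers 3 to 6 it was 0.35 (adjusted p = 0.672). Fmo4 had the lowest p of the members here, at -0.31 (SE 0.16, 95% CI -0.65 to 0.03, adjusted p = 0.249), and had -0.27 (adjusted p = 0.818) without those livers. With all livers, no member had an unadjusted p under 0.05 by edgeR or by DESeq2. By edgeR 2892 of 11932 genes had one, and 0.00838% of all genes, a single gene, was called. DESeq2 called 885 of 11932 genes. Without livers 3 to 6, the unadjusted edgeR p was 0.019 for Fmo5 and 0.0446 for Fmo1 (0.30, adjusted p = 0.729). With the GC slope as a covariate it was 0.0472 for Fmo5 (0.27, adjusted p = 0.568).

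The fall of Fmo5 was larger in value for casein than for soy, but the difference between these effects did not pass the test. Measured against Soy-20% + SAA, the effect of casein restriction less that of soy restriction was -0.40 (SE 0.16, 95% CI -0.72 to -0.07, adjusted p = 0.114 by edgeR), where 8.69% of all genes were called. Without livers 3 to 6 of Soy-20% + SAA it was -0.77 (adjusted p = 0.011), and with the GC slope as a covariate -0.65 (adjusted p = 0.00742). Measured against Soy-20%, none of whose libraries stood apart in GC slope, it was -0.42 (SE 0.14, 95% CI -0.70 to -0.14, adjusted p = 0.0655). There edgeR called 5.99% of all genes. DESeq2 gave an adjusted p of 0.0408 and called 912 of 12450 genes. In both interaction tests over all livers edgeR called 0 of 4 members, with 1, Fmo5, at an unadjusted p under 0.05. So had 3263 of 12532 genes against Soy-20% + SAA and 2488 of 12450 against Soy-20%. For Fmo1, Fmo2 and Fmo4 the differences between effects ran from -0.10 to 0.21 against either control, with adjusted p of 0.576 or more. Without livers 3 to 6 of Soy-20% + SAA they were -0.39, 0.25 and 0.17, with adjusted p of 0.361 or more.

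The casein and soy diets matched in sulfur amino acids were also compared directly. Between the restricted diets, Fmo5 was lower in Cas-5% than in Soy-10% by -0.27 (SE 0.06, 95% CI -0.41 to -0.14, adjusted p = 0.0101 by edgeR), or 1.21-fold, with 5 of 6 Cas-5% livers below every Soy-10% liver and liver 6 inside the range. That was 1 of 4 members, where 10.7% of all genes were called, 6.14% as lower. The adjusted p was 0.135 when all 30 livers shared 1 estimate of the spread. Fmo1 ran from 534 to 706 in Cas-5% (median 584) and from 617 to 775 in Soy-10% (median 718), a difference of -0.22 (SE 0.07, 95% CI -0.38 to -0.07, adjusted p = 0.0638). Fmo1 passed by DESeq2 (adjusted p = 0.0465), which called 1456 of 12041 genes. It also passed by edgeR with the replicate block (0.0297) and without Cas-5% liver 6 (0.0171) or Soy-10% liver 4 (0.0339). That Soy-10% liver also held a summed 6882 normalized counts of 7 pancreatic acinar markers, against at most 8.63 in any other library. Fmo5 was called in all 12 fits of Cas-5% against Soy-10% that left out 1 liver, this liver among them. Beyond fits without this liver, the part of the acinar transcripts in results of Soy-10% was not tested.

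Between the controls Cas-20% and Soy-20% + SAA, Fmo5 differed by 0.12 (SE 0.14, 95% CI -0.18 to 0.42, adjusted p = 0.63 by edgeR), and 2.43% of all genes were called. Without Soy-20% + SAA livers 3 to 6 it differed by 0.49 (adjusted p = 0.591), and with the GC slope as a covariate by 0.40 (adjusted p = 0.273), larger values that also missed the threshold. With all livers, edgeR and DESeq2 called 0 of 4 members, with none at an unadjusted p under 0.05. By edgeR 3143 of 11988 genes had one, and DESeq2 called 1155. For Fmo5 the unadjusted edgeR p was 0.0125 without livers 3 to 6 of Soy-20% + SAA and 0.00872 with the covariate. Fmo2 differed by 0.46 (SE 0.30, 95% CI -0.18 to 1.09, adjusted p = 0.345), by 0.10 (adjusted p = 0.975) without those livers and by 0.17 (adjusted p = 0.898) with the covariate.

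Across all 5 diets the means of Fmo5 ran in the order Cas-20% (4085), Soy-20% + SAA (3771), Soy-20% (3706), Soy-10% (3059) and Cas-5% (2501). Without its livers 3 to 6 the mean of Soy-20% + SAA was 2905, which lies between Soy-10% and Cas-5%. Protein and methionine fell together in the restricted diets, and the order cannot tell them apart. Neighbours among the first 3 did not differ beyond their spread. In Cas-20% against Soy-20% edgeR and DESeq2 called 0 of 4 members, with none at an unadjusted p under 0.05. By edgeR 2174 of 11875 genes had one and 2.69% of all genes were called, and DESeq2 called 608. From Soy-20% to Soy-10% the log2 difference of Fmo5 was -0.28 (SE 0.08). It missed the threshold by edgeR (adjusted p = 0.125) and passed by DESeq2 (adjusted p = 0.0499). The step from Soy-10% to Cas-5% was of similar size (-0.27, SE 0.06) and passed by edgeR (adjusted p = 0.0101). Over wider steps, Fmo5 was 1.33-fold higher in Cas-20% than in Soy-10% (log2 0.41, SE 0.10, adjusted p = 0.00867), where 17.4% of genes were called and 8.85% as higher. It was 1.47-fold lower in Cas-5% than in Soy-20% (log2 -0.56, SE 0.09, adjusted p = 0.000293), with no overlap between livers, where 17.1% were called, 10.1% as lower, and 8.61% did not overlap. Against Soy-20% + SAA it was 1.49-fold lower in Cas-5% (log2 -0.57, SE 0.12, adjusted p = 0.0026), a call that was lost without livers 3 to 6 (-0.20, adjusted p = 0.251). In the test for any difference among the 5 diets, Fmo5 was the 1 member called (adjusted p = 8.12e-05, and 1.52e-05 without livers 3 to 6 of Soy-20% + SAA), where 43.4% of all genes were called. Comparisons that share a diet also share its livers.

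Fmo2 ran in another order, from Cas-5% (105 ± 35.7, SD) and Soy-10% (83.6 ± 20.4) through Cas-20% (78.2 ± 34.8) and Soy-20% (67.7 ± 20.9) to Soy-20% + SAA (57.1 ± 20.8, or 71.9 without livers 3 to 6, above Soy-20%). The restricted diets stood highest, but no neighbours differed beyond their spread. The ends of the order differed, with Cas-5% above Soy-20% + SAA by 0.91 (SE 0.24, 95% CI 0.39 to 1.42, adjusted p = 0.0133), or 1.87-fold. Soy-20% + SAA livers had 97.5, 46.4, 49.4, 40.3, 59.7 and 49.3, and all but liver 1 lay below every Cas-5% liver. With Fmo5, 2 of 4 members were called in this comparison, where 27.6% of all genes were called, 13.7% as higher and 13.9% as lower. The call of Fmo2 was lost without Soy-20% + SAA livers 3 to 6 (0.55, adjusted p = 0.367) and with the GC slope as a covariate (0.62, adjusted p = 0.217). Cas-5% against Soy-20%, which holds none of those libraries, gave 0.65 (SE 0.22, adjusted p = 0.0528 by edgeR and 0.0291 by DESeq2). In the test over 5 diets its adjusted p was 0.0548, and 0.304 without those livers. For Soy-10% against Soy-20% + SAA the difference was 0.55 (SE 0.21, adjusted p = 0.0838), and 0.76 (adjusted p = 0.00582) without Soy-20% + SAA liver 1. It was 0.19 (adjusted p = 0.789) without livers 3 to 6 and 0.23 (adjusted p = 0.688) with the GC slope as a covariate.

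Fmo1 means lay between 596 in Cas-5% and 703 in Soy-10%, with Cas-20% at 616, Soy-20% at 676 and Soy-20% + SAA at 695, or 549 without livers 3 to 6, the lowest. Fmo4 means lay between 79.2 in Soy-20% and 98.6 in Soy-20% + SAA (95.4 without livers 3 to 6), with Cas-20% at 85.6, Soy-10% at 84.7 and Cas-5% at 84.4. No neighbours in either order differed beyond their spread, and in the test over 5 diets the adjusted p was 0.341 for Fmo1 and 0.42 for Fmo4, and 0.257 and 0.81 without those livers.

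Within diets, Fmo1 and Fmo5 varied together although they lie on different chromosomes. After each diet's mean was taken from log2 CPM, Pearson's r over 30 livers was 0.61 (permutation p = 0.00634, 0.038 adjusted over 6 pairs of members) and Spearman's rho was 0.63 (permutation p = 0.00225, adjusted 0.0135). Without the 2 livers farthest from the median of Fmo1, r was 0.46, and without livers 3 to 6 of Soy-20% + SAA it was 0.54. In both, the diet means taken off were still those of all 6 livers. Livers 1 and 2 of Soy-20% + SAA thus kept deviations from a mean that livers 3 to 6 helped to set. Values of a liver come from 1 library, and the part of library preparation in this relation was not tested. The other 5 pairs had r between -0.32 and 0.26, with adjusted p of 0.338 or more for r and 0.177 or more for rho. Without livers 3 to 6 of Soy-20% + SAA, and with the same means of all 6 livers, their r lay between -0.34 and 0.26.

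**Figure D4:**
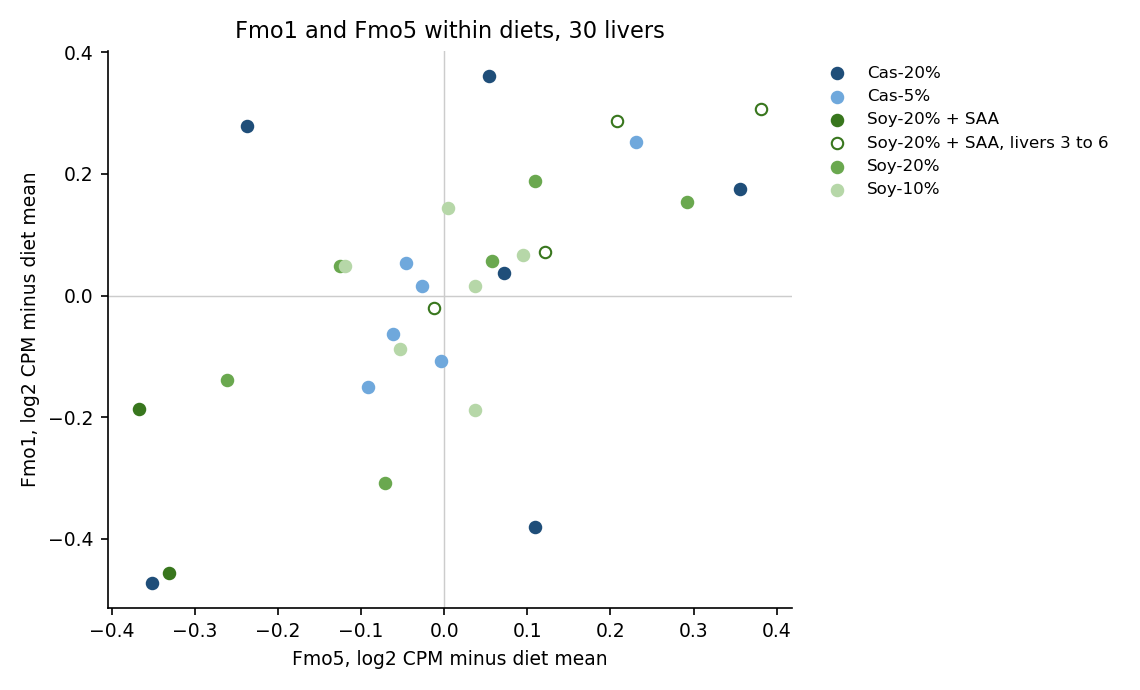
Fmo1 against Fmo5 in 30 livers, each as log2 CPM minus the mean of its diet, coloured by diet with Soy-20% + SAA livers 3 to 6 as open circles. Livers with more Fmo5 than their diet's mean tended to have more Fmo1 (r = 0.61), and 3 of the 4 open circles lie right of 0 and above it while Soy-20% + SAA livers 1 and 2 lie at the lower left.

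The genes most like each member by Pearson's r of log2 CPM over 30 livers, among 12032 genes with a mean of 10 or more counts, were read as a description, since the livers share diets and libraries. Fmo5 was most like Gstk1 (r = 0.91), a glutathione transferase of mitochondria and peroxisomes, Hgd (0.90), which opens the ring of homogentisate in tyrosine breakdown, and Park7 (0.89), a redox-sensitive protein. Without livers 3 to 6 of Soy-20% + SAA these were 0.89, 0.88 and 0.87. Fmo1 was most like Fth1 (0.82) and Ftl1 (0.81), the heavy and light chains of the iron store ferritin, and Akr1a1 (0.82), an aldehyde reductase. The ferritin genes have near-identical copies that reads can be split among. Without the same livers these were 0.81, 0.77 and 0.81. Fmo2 was most like Cblb (0.74), a ubiquitin ligase, Nfe2l1 (0.72), a transcription factor, and Fkbp5 (0.71), a co-chaperone of steroid receptors, with 0.71, 0.69 and 0.66 without those livers. Fmo4 was most like Zmat1 (0.67), Zc3h6 (0.66) and the noncoding RNA Firre (0.66), and these fell to 0.64, 0.55 and 0.61 without those livers.

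Genes of microsomal electron transfer, NADPH supply and FAD synthesis were read beside the members, from lists chosen with earlier results of these data known. The members take electrons from NADPH, while the first list also holds genes of cytochrome b5 and its reduction. Of 13 genes of microsomal electron transfer and NADPH supply, 7 fell and 2 rose in Cas-5% against Cas-20%, with a median log2 difference of -0.21 where the median of all genes was 0.02 and 24.9% of all genes were called, 13.3% as lower. Cyb5r3, which reduces cytochrome b5 with NADH, fell by 1.0 on the log2 scale (SE 0.10, edgeR adjusted p = 1.74e-06). Idh1, a cytosolic source of NADPH, fell by 0.41 (SE 0.07, adjusted p = 0.000297), and Taldo1, of the pentose phosphate route, fell by 0.39 (SE 0.07, adjusted p = 0.000789). In Soy-10% against Soy-20% + SAA 2 of the 13 fell and none rose, a share near the 17% of all genes called. Without livers 3 to 6 of Soy-20% + SAA 1 of the 13 fell, where 2.54% of all genes were called. Against Soy-20% edgeR called none of the 13, where it called 0.866% of all genes. Cyb5r3 fell by 0.68 (adjusted p = 0.00151) against Soy-20% + SAA, by 0.49 (adjusted p = 0.0326) without those livers, and had -0.34 (adjusted p = 0.074) against Soy-20%. In Cas-5% against Soy-10% 4 of the 13 fell and none rose, where 10.7% of all genes were called. Of 4 tested genes of riboflavin uptake and FAD synthesis, 1 rose with casein restriction, a share near the 24.9% of all genes called. It was the riboflavin transporter Slc52a2 (0.72, SE 0.21, adjusted p = 0.0175). Riboflavin kinase Rfk had -0.16 (adjusted p = 0.0615) and the mitochondrial carrier Slc25a32 had -0.20 (adjusted p = 0.45). None was called by edgeR in either soy comparison, with or without livers 3 to 6 of Soy-20% + SAA.

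Enzymes that meet the same sulfur compounds moved in part. Of all genes, edgeR called 24.9% in Cas-5% against Cas-20% and 17% in Soy-10% against Soy-20% + SAA. It called 2.54% in the latter without livers 3 to 6, and 0.866% in Soy-10% against Soy-20%. Methionine sulfoxide reductases reverse the oxidation of methionine, a sulfur that flavin monooxygenases can oxygenate. Of the 4, Msrb3 rose (0.54, SE 0.10, adjusted p = 0.000644) and Msra (-0.31, SE 0.08, adjusted p = 0.012) and Msrb1 (-0.25, SE 0.07, adjusted p = 0.015) fell in Cas-5% against Cas-20%. In Soy-10% against Soy-20% + SAA Msrb3 alone was called, at 0.95 (adjusted p = 0.00382), a call lost without livers 3 to 6 (0.48, adjusted p = 0.0642), and against Soy-20% it had 0.19 (adjusted p = 0.366). Of 4 genes from cysteine to hypotaurine and taurine, Csad, the decarboxylase that makes hypotaurine, rose in each restriction, by 2.72 (SE 0.19, adjusted p = 3.81e-08) for casein, 0.88 (SE 0.14, adjusted p = 0.00127) against Soy-20% + SAA (0.85, adjusted p = 0.0066, without livers 3 to 6) and 0.49 (SE 0.07, adjusted p = 0.00266) against Soy-20%. No other gene of that list was called in these, and for casein the thiol dioxygenase Ado had 0.22 (adjusted p = 0.085) and the taurine transporter Slc6a6 had -0.17 (adjusted p = 0.245).

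Sex-biased genes of liver were also read in these males. Of 12 male-biased genes 4 fell and none rose in Cas-5% against Cas-20%, where 13.3% of all genes fell, among them Cyp4a12b (-3.40, adjusted p = 8.35e-07), Cyp4a12a (-1.06, adjusted p = 9.33e-05) and Selenbp2 (-2.05, adjusted p = 0.00616). The Cyp4a12 genes are near-identical copies, and their separate values are uncertain. Of 6 tested female-biased genes, Cyp2a4 rose (3.26, adjusted p = 0.00294) and Cyp17a1 (-1.70, adjusted p = 0.000391) and Atp6v0d2 (-0.89, adjusted p = 0.0402) fell. In Soy-10% 1 male-biased gene fell against either control, and 1 female-biased gene fell against Soy-20% + SAA and none against Soy-20%. Of all genes, 17% were called against Soy-20% + SAA and 0.866% against Soy-20%. Without livers 3 to 6 of Soy-20% + SAA, 1 male-biased and no female-biased gene fell, where 2.54% of all genes were called.

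Markers of other cells were read beside Fmo5 in the casein comparison, where 24.9% of all genes were called, 13.3% as lower. Hepatocyte markers were abundant in every library, as the tissue label says, at a summed 688260 to 925254 normalized counts over 7 genes. Of these the urea cycle enzyme Cps1 fell (-1.40) and the transcription factor Hnf4a (0.27) and albumin, Alb (0.35), rose in Cas-5%, and 4 were not called. The 6 stellate cell and fibroblast markers summed to a median of 4565 in Cas-5% (3799 to 5168) and 3716 in Cas-20% (3273 to 4127), and 2 of them rose. Of 5 red blood cell markers 4 fell, with summed medians of 16556 (11503 to 19812) against 25137 (15728 to 34944). Of 6 adipocyte markers listed, Adipoq, Plin1 and Lep were absent from the genes counted. Of the other 3, Cfd (-1.77) and Cidec (-1.50) fell and Car3 had 0.09, and these were not read as a measure of adipocytes. None of the 6 Kupffer cell markers, 0 of 2 cholangiocyte markers tested and 1 of 6 sinusoidal endothelial markers, Kdr (0.20), were called. No acinar marker was abundant enough to test, and 5 of 7 were at 0 in every Cas-5% liver. The part of these cells in the Fmo5 result was not tested.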

How the data were processed

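Liver RNA of 30 male mice, 6 per diet, was read as 3′ tags. The authors made QuantSeq 3′ libraries, sequenced them on an Illumina NextSeq and made read count tables with the Lexogen pipeline on Bluebee. The read length differs between the paper and the labels, as does methionine in Cas-5% and Soy-20% + SAA, for which the labels are used. The submitters' processing notes name GRCm38/mm10, R 4.0.3 and DESeq2 1.30. The aligner, counter and annotation release are not given in the sources used here, nor is the use of strand. The first deposited table holds raw counts per gene without normalization. The second deposited table holds a normalized signal, the same counts divided by a size factor per library (0.759 to 1.3) with no scaling for length, and its largest relative deviation from that quotient was 9.94e-15. Every one of the 14173 genes had a total of 90 or more. Symbols lacking for 1718 genes were taken from GENCODE M21 for 1684.

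Diets were compared in pairs of 6 and 6 livers with edgeR 4.0.16 in R 4.3.3 (filterByExpr, TMM, quasi-likelihood F test, Benjamini-Hochberg over all genes tested, called at an adjusted p of 0.05 or less). Differences between effects used 24 livers and the test over 5 diets used 30. Intervals are 95%. DESeq2 1.42.0 was an alternative, as were other size factors, no filter, at least 10 counts in every liver, all 30 livers in one fit, a replicate block, a GC slope covariate (GC of the last 200 transcript bases), leaving out livers 3 to 6 of Soy-20% + SAA and leaving out each liver in turn. Leaving out its livers 1 and 2 was added after the data were seen, as was leaving out livers 3 to 6 for gene lists and means. Log2 CPM used a prior count of 2. Correlation p-values came from 100000 permutations within diets. The fits were tested on simulated data. Of each list other than cell markers the 3 genes with the smallest adjusted p in Cas-5% against Cas-20% are named, and of each member the 3 genes with the highest r; other named genes were chosen after their values were seen. Members and lists were chosen with earlier results of these data known. No libraries of a diet agreed within sampling noise (lowest chi-square per gene 6.12).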

Additional observations from a re-analysis of the deposited data

Results flagged for a closer look

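In 2 of 20 groups, each 1 member in the 6 livers of 1 diet, a single liver lay far from the others. Its gap to the nearest liver, as a share of the whole range, was above Dixon's 95% critical value for 6 samples, and chance gives about 1 group in 20. In Cas-5%, liver 6 had 2922 normalized counts of Fmo5, with a gap of 0.747 of the range. The fall of Fmo5 against Cas-20% passed the test with and without it. In Soy-20% + SAA, liver 1 had 97.5 normalized counts of Fmo2, with a gap of 0.661 of the range. Without it, Fmo2 in Soy-10% against this diet passed the test (0.76, edgeR adjusted p = 0.00582), which it did not over all livers. Without livers 3 to 6 of this diet the same difference was 0.19 (adjusted p = 0.789), and with the GC slope as a covariate 0.23 (adjusted p = 0.688).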

How the results depend on the processing

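Fmo5 in Cas-5% against Cas-20% and against Soy-20%, and in Cas-20% against Soy-10%, kept its direction and its call under the 7 other settings of each. Comparisons with Soy-20% + SAA depended on that diet's libraries, and the cause was not tested. Depth limits Fmo2 and Fmo4, with 29 to 172 and 57 to 145 raw counts per library. Replicate numbers did not pair the livers: same-numbered livers of 2 diets deviated with r from -0.19 to 0.24 (median 0.011, 10 of 60 over 0.1), and in 27 of 120 cases a liver correlated best with its own number. With the replicate block, Fmo1 in Cas-5% against Soy-10% (-0.22, adjusted p = 0.0297) and Fmo2 in Cas-5% against Soy-20% (0.63, adjusted p = 0.0262) became calls, and genes called fell from 291 to 141 for Cas-20% against Soy-20% + SAA and from 319 to 190 for Cas-20% against Soy-20%.

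Without Soy-20% + SAA livers 3 to 6, log2 differences were 0.067 for Fmo5 in Soy-10%, 0.30 for Fmo1, -0.10 for Fmo2 and 0.35 for Fmo5 in Soy-20%, 0.16 for Fmo1 in Cas-20%, and 0.13 for Fmo1, 0.55 for Fmo2 and -0.20 for Fmo5 in Cas-5%, each against Soy-20% + SAA. The difference of the casein and soy effects was then 0.25 for Fmo2 and -0.77 for Fmo5. With the GC slope covariate the same values were 0.0029 for Fmo5 in Soy-10%, 0.24, -0.0019 and 0.27 in Soy-20%, 0.058 for Fmo1 in Cas-20%, 0.098, 0.62 and -0.25 in Cas-5%, and 0.19 for Fmo2 and -0.65 for Fmo5 in the difference of effects, and Fmo2 in Cas-20% against Soy-10% was 0.039. Without livers 1 and 2, Soy-10% against Soy-20% + SAA gave -0.12 for Fmo1, 0.75 for Fmo2 and -0.45 for Fmo5, Cas-20% gave -0.044 for Fmo5, Cas-5% gave -0.38 for Fmo1, the difference of effects was 0.089 for Fmo1, and Fmo2 over 5 diets had F = 4.13 (adjusted p = 0.0204). With DESeq2, Fmo5 in Soy-10% against Soy-20% (-0.28), Fmo1 in Cas-5% against Soy-10% (-0.22), Fmo2 in Cas-5% against Soy-20% (0.65), Fmo5 in the difference of effects against Soy-20% (-0.42) and Fmo2 over 5 diets (likelihood ratio 12.6) became calls. With 10 counts in every liver, Fmo2 over 5 diets had F = 3.33 (adjusted p = 0.047). With all 30 livers in one fit, Fmo5 in Cas-5% against Soy-10% (-0.28) was no call.

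Leaving out 1 liver at a time, ranges that crossed 0 or a threshold were -0.12 to 0.039 for Fmo1 and -0.084 to 0.064 for Fmo4 in Cas-5% against Cas-20%. They were -0.061 to 0.077 for Fmo1, 0.45 to 0.76 for Fmo2 and -0.37 to -0.22 for Fmo5 in Soy-10% against Soy-20% + SAA, where Fmo5 became a call without Soy-20% + SAA liver 1 (adjusted p = 0.0172) or 2 (0.0258). In Soy-20% against Soy-20% + SAA they were -0.11 to 0.023 for Fmo1 and -0.081 to 0.059 for Fmo5. In Soy-10% against Soy-20% Fmo4 ran from -0.056 to 0.16, and in Cas-5% against Soy-10% Fmo1 from -0.27 to -0.19 and Fmo4 from -0.046 to 0.16. In the difference of effects Fmo1 ran from -0.14 to 0.026 and Fmo2 from -0.32 to 0.12.

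Genes called in Soy-10% against Soy-20% + SAA, 2035 as reported, were 3077 with all 30 livers in one fit, 368 with the GC covariate, 317 without livers 3 to 6, 4182 without livers 1 and 2, and 1219 to 3119 without 1 liver. Soy-10% against Soy-20% (103) gave 228 with DESeq2, 62 in one fit and 50 to 146 without 1 liver. Soy-20% against Soy-20% + SAA (1) gave 885 with DESeq2, 2 with other size factors, with no filter and with the stricter filter, 1793 in one fit, 0 with the GC covariate and without livers 3 to 6, 2978 without livers 1 and 2 and 0 to 1587 without 1 liver. Cas-20% against Soy-20% + SAA (291) gave 1155 with DESeq2, 2331 in one fit, 5 with the GC covariate, 3 without livers 3 to 6, 3112 without livers 1 and 2 and 9 to 1817 without 1 liver. The highest of these came without Soy-20% + SAA liver 1. Cas-20% against Soy-20% (319) gave 608 with DESeq2. Cas-5% against Soy-20% + SAA (3354) gave 1322 with the GC covariate, 1025 without livers 3 to 6 and 5071 without livers 1 and 2. The difference of effects (1089) gave 586, 296 and 2728 under these, and 719 to 1941 without 1 liver, and against Soy-20% (746) it gave 493 in one fit. The test over 5 diets (5450) gave 3546 with the GC covariate and 3433 without livers 3 to 6.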
